A study of Mus musculus with 12 samples.

Results

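Chromatin modifiers and remodellers are the proteins that move nucleosomes, write or erase histone marks, and read those marks. They are made in the cytosol and imported into the nucleus, so their mRNAs are translated mostly on free ribosomes, whereas mRNAs for secreted and membrane proteins are brought to the endoplasmic reticulum (ER) by a hydrophobic stretch of the growing chain. In embryonic stem cells, the SWI/SNF (BAF) remodellers, the NuRD complex and the histone methylation enzymes are known regulators of pluripotency and of the exit from it. The genes described here were all protein-coding genes whose symbol begins with Smarc, or with Kmt, Kdm, Chd, Brd, Setd, Arid or Hdac followed by a digit, with names ending in -ps left out. They came to 86 of the 55416 gene identifiers counted, and to 86 of 21928 protein-coding genes in the annotation used. One of them, Brd3os, is a short gene on the strand opposite Brd3 that met the symbol rule without being a known chromatin factor.

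The study used E14Tg2a.4 mouse embryonic stem cells, an established line, whose large-subunit ribosomal protein Rpl31 was fused, in all groups alike, to FLAG and AviTag peptides and a site for TEV protease (Rpl31-FTA). Plasmids for both fragments of ALIBi, a biotin-labelling system aimed at 1 cellular location, were transfected, and labelled ribosomes were captured from a cycloheximide lysate and released with TEV protease. The 4 groups were ER-targeted ribosome-bound RNA, cytosol-targeted ribosome-bound RNA, ER-targeted whole-cell RNA and cytosol-targeted whole-cell RNA, with 3 biological replicates each, and whole-cell RNA is an aliquot of lysate set aside before capture. The capture sees only ribosomes that hold the tagged Rpl31, and biotin reaches them only where the transfected plasmids are expressed.

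Reads counted in genes ranged from 21110420 to 26920565 per library. Levels below are CPM, a gene's share of the reads of its library, scaled with edgeR's trimmed mean of M values (TMM), and ratios are log2 values with their standard error (SE). A gene is said to have risen or fallen where edgeR's quasi-likelihood test gave a Benjamini-Hochberg adjusted p under 0.05 over all 16221 genes tested, which included 84 of the 86 chromatin genes. Replicates are biological per the labels, which name no separate cultures, so a p-value here speaks of the spread among these libraries alone. The 12 listed stem cell markers, Pou5f1 and Nanog among them, summed to 13538 to 14150 CPM in ER ribosome-bound libraries, 11121 to 11309 in cytosol ribosome-bound libraries, 9097 to 9468 in ER whole-cell libraries and 9092 to 9244 in cytosol whole-cell libraries. The 6 fibroblast markers, which include the secreted collagens Col1a1 and Col1a2, summed to 76.8 to 83.1 CPM in ER ribosome-bound libraries, 27.9 to 30.3 in cytosol ribosome-bound libraries, 25.1 to 27.2 in ER whole-cell libraries and 26 to 28.2 in cytosol whole-cell libraries. The 7 markers of two-cell-like cells summed to 37.7 to 38.9 CPM in ER ribosome-bound, 57.5 to 61.9 in cytosol ribosome-bound, 6.61 to 7.6 in ER whole-cell and 6.78 to 9.2 in cytosol whole-cell libraries. None of the listed markers was at 0 in all libraries, and their part in the results below was not tested. In bulk RNA, fewer cells of a type and less RNA per cell cannot be told apart.

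Few of the chromatin genes code for a stretch that could enter a membrane. A window of 19 residues with a mean Kyte-Doolittle hydrophobicity of at least 1.8 was found in 4 of the 86, namely Kdm8, Chd4, Arid1b and Brd8, against 26.6% of 14116 tested protein-coding genes with a coding model. The coding bases of the most hydrophobic window of Kdm8, Chd4 and Arid1b are given here beside those of Ddost, a subunit of the ER oligosaccharyltransferase, to set windows of similar score in nuclear proteins against one in an ER protein. The 57 capital bases code for the window and the 9 lower-case bases on each side flank it; sequences are from the GENCODE M21 transcripts (GRCm38), coding strand, 5′ to 3′.
Kdm8: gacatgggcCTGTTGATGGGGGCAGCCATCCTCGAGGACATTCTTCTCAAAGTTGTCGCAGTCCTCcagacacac
Chd4: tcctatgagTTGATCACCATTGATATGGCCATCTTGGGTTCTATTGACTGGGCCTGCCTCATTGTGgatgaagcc
Arid1b: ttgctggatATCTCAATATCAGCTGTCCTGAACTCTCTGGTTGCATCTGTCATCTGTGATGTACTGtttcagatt
Ddost: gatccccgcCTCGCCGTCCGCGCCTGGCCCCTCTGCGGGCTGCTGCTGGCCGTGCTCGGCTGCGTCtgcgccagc

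In Ddost (chromosome 4) the window spans residues 7 to 25 of 441, at the very start of the protein, with a mean of 2. In Kdm8 (chromosome 7) it spans residues 124 to 142 of 414 with 2.13, in Chd4 (chromosome 6) residues 854 to 872 of 1922 with 1.91, and in Arid1b (chromosome 17) residues 2272 to 2290 of 2296 with 1.98. None of these 3 chromatin genes passed the test as higher on ER than on cytosol ribosomes with the TMM scaling. Ddost was 714, 733 and 711 CPM in ER ribosome-bound libraries, against 114, 107 and 118 in cytosol ribosome-bound libraries, a log2 ratio of 2.67 ± 0.037 (SE). The same ratio was -0.29 ± 0.075 for Kdm8, -0.06 ± 0.035 for Chd4 and -0.27 ± 0.065 for Arid1b. Brd8, with a window mean of 1.81, was at 0.06, which missed the threshold. With the cytosolic scaling described below, Kdm8 was at -0.14, Chd4 at 0.09, Arid1b at -0.12 and Brd8 at 0.21.

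Whole-cell levels of the chromatin genes did not separate the targetings. None of the 84 and 0 of all 16221 genes (0%) passed the threshold between ER whole-cell and cytosol whole-cell RNA with edgeR, where 1 chromatin gene and 634 genes in all had an unadjusted p under 0.05; DESeq2 called 0, with 320 genes under 0.05 unadjusted. The summed level of the 86 genes was 8382, 8395 and 8482 CPM in ER whole-cell libraries, against 8291, 8406 and 8197 in cytosol whole-cell libraries. These ranges overlapped. All 3 ER whole-cell libraries lay above the cytosol whole-cell libraries for 5 of the 84 genes (5.5% of all tested genes) and below them for 2 (3.85%). Kdm5b, an eraser of H3K4 methylation, had the highest level, with a mean of 709 ± 4.5 CPM in ER whole-cell RNA and 698 ± 16 in cytosol whole-cell RNA (SD, n = 3 each). Per kilobase of transcript the order changed, and Kdm1a (LSD1, which removes H3K4 methylation) and Kmt5a (the H4K20 monomethylase) stood at 107 CPM per kb each in cytosol whole-cell RNA. At the low end, Kdm4d had 4 to 9 reads per group and the Y-linked Kdm5d 1 to 4 reads per group; both missed the filter on low counts and were not tested. Brd3os, Arid3c and Smarca2 were tested at mean levels of 0.367 to 1.54 CPM.

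On ribosomes of either targeting, most chromatin mRNAs were less abundant than in the lysate. Between ER ribosome-bound and ER whole-cell RNA, 63 of 84 fell and 4 rose, where 30.6% of all tested genes fell and 32.5% rose. Between cytosol ribosome-bound and cytosol whole-cell RNA, 53 fell and 11 rose, where 33% of all genes fell and 20.8% rose. Of 10357 tested coding genes without a hydrophobic window, 41.1% fell and 20.2% rose in the ER pair, with a median log2 ratio of -0.09. In the cytosol pair 29.5% of those genes fell and 27.7% rose, with a median of 0.01. Of 80 housekeeping genes of the cytosol, 73.8% fell and 11.2% rose in the ER pair. In the cytosol pair 35% of these 80 fell and 40% rose. Of 368 tested Zfp-named zinc finger genes, 31.5% fell and 12% rose in the ER pair. In the cytosol pair 26.6% of the Zfp-named genes fell and 16% rose. The median log2 ratio of the 84 was -0.41 in the ER pair and -0.27 in the cytosol pair, against 0.01 and -0.05 over all tested genes. Their summed level was 6029, 6024 and 5914 CPM in ER ribosome-bound and 6453, 6454 and 6505 CPM in cytosol ribosome-bound libraries, below every whole-cell library given above. The exact two-sided permutation p for each such pair of groups was 0.1, the smallest that 3 against 3 libraries allow. 8 chromatin genes fell by over 2-fold in the ER pair, where 1.92% of all genes did, and 11 in the cytosol pair, where 3.66% did. No chromatin gene rose by over 2-fold, where 16.5% of all genes did in the ER pair and 1.92% in the cytosol pair. Of the 10357 genes without a window, 144 fell and 599 rose by over 2-fold in the ER pair, and 244 fell and 162 rose in the cytosol pair. All 3 ER ribosome-bound libraries lay below the ER whole-cell libraries for 65 chromatin genes (32% of all) and above them for 5 (33.6%). In the cytosol arm the ribosome-bound libraries lay below for 53 (35.2%) and above for 12 (23.4%). 47 of the chromatin genes fell in the ER pair, and 48 in the cytosol pair, under all 21 alternative settings. The share of all tested genes that did so was not counted.

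Scaling bears on these counts. With library sizes set to the summed counts of 80 housekeeping genes of the cytosol (cytosolic scaling), the median of all genes in the ER pair moved by over 0.1, to 0.243, and the chromatin genes had 47 falls, 15 rises and a median of -0.18; their median stayed below that of all genes. Of all 16221 tested genes, 2382 fell and 8109 rose in the ER pair under that scaling. The part of a scaling error in these counts was not tested.

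Nearly all ATPases outside SWI/SNF, which slide or evict nucleosomes, fell in both pairs as scaled here. All 14 fell between ER ribosome-bound and ER whole-cell RNA, with a median of -0.42, and 13 of 14 fell in the cytosol pair, with a median of -0.41. Under cytosolic scaling 9 fell and 1 rose in the ER pair, and 12 fell and 1 rose in the cytosol pair. Chd8, a CHD remodeller, fell furthest: it was 35.8, 35.6 and 33.1 CPM in ER ribosome-bound libraries, against 101, 102 and 101 in ER whole-cell libraries. In the cytosol arm it was 33.4, 31.9 and 32.1 CPM in ribosome-bound libraries, against 103, 101 and 103 in whole-cell libraries. The ribosome-bound and whole-cell libraries of Chd8 did not overlap in either arm. Its log2 ratio was -1.54 ± 0.044 (SE, edgeR adjusted p = 1.3e-26) in the ER pair and -1.65 ± 0.043 (8.6e-27) in the cytosol pair. Its CPM in ribosome-bound RNA was thus 34.4% and 31.8% of that in whole-cell RNA, a ratio of read shares that depends on the scaling. Under cytosolic scaling the log2 ratios were -1.31 and -1.59.

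Chd9 was 40.8, 37 and 39.3 CPM in ER ribosome-bound and 82, 79.8 and 81.1 CPM in ER whole-cell libraries (-1.05 ± 0.052). It was 34.8, 33.6 and 35.7 CPM in cytosol ribosome-bound and 76.3, 88.7 and 77.1 CPM in cytosol whole-cell libraries (-1.22 ± 0.052). Chd7, which binds enhancers, was at -0.84 ± 0.048 in the ER pair and -1.05 ± 0.048 in the cytosol pair, where it was 28.5, 29.3 and 29.2 CPM in ribosome-bound and 58.4, 61.8 and 60.2 CPM in whole-cell libraries. Neither gene had overlapping groups in either arm. Chd4, the ATPase of the NuRD complex and the most counted of the group, was 281, 297 and 271 CPM in ER ribosome-bound and 428, 433 and 432 CPM in ER whole-cell libraries, a log2 ratio of -0.61 ± 0.035. Smarca5, the ISWI ATPase, was at -0.40 ± 0.035 in the ER pair and -0.20 ± 0.035 in the cytosol pair; it has a processed pseudogene, so its counts are uncertain. At the other end, Chd1, which keeps stem cell chromatin open, was 115, 111 and 107 CPM in ER ribosome-bound and 118, 119 and 121 CPM in ER whole-cell libraries, a fall of small size (-0.11 ± 0.037, edgeR adjusted p = 0.01) that became a rise of 0.12 under cytosolic scaling. In the cytosol pair Chd1 was at 0.04 ± 0.037, which missed the threshold.

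Among histone methyltransferases, 11 of 16 fell and 2 rose in each pair, with medians of -0.40 in the ER and -0.33 in the cytosol pair. The H3K4 methyltransferases of the MLL family carried the largest differences. Kmt2a (MLL1) was 27.9, 26 and 25.9 CPM in ER ribosome-bound libraries, against 64.8, 63.7 and 68.1 in ER whole-cell libraries. It was 22.7, 18.6 and 20.2 CPM in cytosol ribosome-bound libraries, against 62.2, 68.8 and 61.4 in cytosol whole-cell libraries. Every ribosome-bound library of Kmt2a lay below every whole-cell library. The log2 ratios were -1.30 ± 0.059 in the ER pair and -1.65 ± 0.060 in the cytosol pair.

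Kmt2d (MLL4), an enhancer methyltransferase, was 28.9, 28.6 and 28.9 CPM in ER ribosome-bound and 64.9, 62.3 and 72.7 CPM in ER whole-cell libraries, a log2 ratio of -1.21 ± 0.058. In the cytosol arm Kmt2d was 23.5, 24 and 26.2 CPM in ribosome-bound and 64.1, 68.2 and 60.7 CPM in whole-cell libraries, at -1.39 ± 0.058. Kmt2b was 55.1, 53.2 and 53.1 CPM in ER ribosome-bound and 122, 116 and 127 CPM in ER whole-cell libraries (-1.18 ± 0.041), with -1.29 ± 0.041 in the cytosol pair. Kmt2c was 26, 26.4 and 25.4 CPM in ER ribosome-bound and 49.2, 52.5 and 56.3 CPM in ER whole-cell libraries (-1.02 ± 0.057), with -1.17 ± 0.057 in the cytosol pair. As scaled here, the CPM of these 4 mRNAs in ER ribosome-bound RNA was 40.5% (Kmt2a) to 49.2% (Kmt2c) of that in whole-cell RNA. In the cytosol arm it was 31.9% (Kmt2a) to 44.4% (Kmt2c). These compare shares of reads and are not the fraction of an mRNA on ribosomes. Under cytosolic scaling the ER pair had -1.07 for Kmt2a and -0.79 for Kmt2c. In the ER pair Kmt2e stood apart from its namesakes (-0.04 ± 0.070). It was 28.9, 28.1 and 24.8 CPM in ER ribosome-bound and 27.3, 30.1 and 27.1 CPM in ER whole-cell libraries, which overlap. In the cytosol arm it lay below the lysate, as its namesakes did, but by less. There it was 24.1, 23.7 and 21.9 CPM in ribosome-bound and 27.7, 30.2 and 24.3 CPM in whole-cell libraries. Its ER ribosome-bound libraries also lay above its cytosol ribosome-bound libraries without overlap (0.38 under cytosolic scaling). Kmt2e overlaps another coding gene, so its counts are uncertain.

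The writers of H4K20 methylation had smaller ratios and were mixed in direction. Kmt5c was 150, 149 and 154 CPM in ER ribosome-bound and 132, 125 and 131 CPM in ER whole-cell libraries, a rise of 0.22 ± 0.038 (edgeR adjusted p = 2.8e-06), and it rose by 0.19 ± 0.037 in the cytosol pair. Kmt5a was at -0.14 ± 0.038 in the ER pair (0.09 under cytosolic scaling) and 0.06 ± 0.037 in the cytosol pair. Kmt5b fell in both, at -0.20 ± 0.054 in the ER pair (0.03 under cytosolic scaling) and -0.12 ± 0.053 in the cytosol pair (-0.06). Setd4 was 20.8, 19.8 and 20.5 CPM in ER ribosome-bound and 16.7, 16.1 and 17.3 CPM in ER whole-cell libraries, a rise of 0.28 ± 0.066, and it rose by 0.17 ± 0.066 in the cytosol pair. Setd2, the H3K36 trimethylase, was at -0.55 in the ER pair and -0.66 in the cytosol pair, and Setd5, the most counted of the group, at -0.27 in the ER pair and -0.31 in the cytosol pair. Setd3, best known as a methyltransferase of actin, was at -0.02 in the ER pair and -0.01 in the cytosol pair, and did not pass the test.

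Histone demethylases had the lowest medians, -0.54 in the ER and -0.48 in the cytosol pair, and 15 of 16 tested fell in the ER pair. Kdm5a, which erases H3K4 methylation, was 31.6, 30.2 and 32 CPM in ER ribosome-bound libraries, against 66.9, 68.8 and 69.3 in ER whole-cell libraries (-1.13 ± 0.050); it overlaps another coding gene. Kdm5b was 400, 397 and 392 CPM in ER ribosome-bound libraries, against 706, 706 and 714 in ER whole-cell libraries (-0.84 ± 0.032). Kdm6a (UTX), which erases H3K27 methylation, was 30.3, 34.3 and 31.4 CPM in ER ribosome-bound and 53.7, 56.5 and 55.4 CPM in ER whole-cell libraries (-0.78 ± 0.053). None of these ribosome-bound ranges met the whole-cell range. Kdm6a fell further in the cytosol arm, where it was 25.5, 23.4 and 25.8 CPM in ribosome-bound and 54.7, 57.4 and 56.6 CPM in whole-cell libraries (-1.17 ± 0.053).

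Kdm1a and Kdm8 did not share this pattern in the cytosol arm. Kdm1a was 280, 293 and 270 CPM in ER ribosome-bound and 327, 337 and 335 CPM in ER whole-cell libraries, a fall (-0.25 ± 0.035). It was 356, 363 and 372 CPM in cytosol ribosome-bound and 320, 327 and 329 CPM in cytosol whole-cell libraries, a rise of 0.16 ± 0.034 (edgeR adjusted p = 0.00015). Kdm1a thus lay below the lysate on ER ribosomes and above it on cytosol ribosomes, with no overlap in either pair, though its ER value became -0.02 under cytosolic scaling and no longer passed the test. It overlaps another coding gene, so its counts are uncertain. Kdm8 was at 0.08 ± 0.079 in the ER pair, which missed the threshold, and rose by 0.30 ± 0.074 in the cytosol pair.

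For histone deacetylases, 8 of 11 fell in the ER and 9 of 11 in the cytosol pair, and none rose. Hdac2, a catalytic subunit of NuRD, was 94.6, 93.6 and 95.2 CPM in ER ribosome-bound libraries, against 172, 180 and 166 in ER whole-cell libraries (-0.87 ± 0.040). Hdac1, its partner in the same complexes, was 118, 122 and 114 CPM in ER ribosome-bound libraries, against 194, 201 and 204 in ER whole-cell libraries (-0.76 ± 0.038). In the cytosol pair Hdac2 was at -0.80 and Hdac1 at -0.61. Hdac6, which deacetylates tubulin in the cytoplasm, was at -0.73 ± 0.046 in the ER pair and -0.77 ± 0.045 in the cytosol pair. Hdac8 and Hdac9 passed the test in neither pair, at 0.01 ± 0.117 and -0.03 ± 0.195 in the ER pair, and their mean levels lay between 2.17 and 8.78 CPM. Hdac10 fell in the cytosol pair at -0.28 ± 0.112 (edgeR adjusted p = 0.036), a call that 17 of 21 alternatives did not make.

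SWI/SNF subunits were the mixed group: 7 of 14 fell and 2 rose in the ER pair, while 4 fell and 6 rose in the cytosol pair, with medians of -0.27 and 0.09. Smarca4 and the ARID subunits fell in both, while the other ATPase, Smarca2, was low and passed the test in neither. Smarca4 (BRG1), the ATPase of the stem cell complex, was 118, 113 and 117 CPM in ER ribosome-bound libraries, against 256, 277 and 271 in ER whole-cell libraries (-1.21 ± 0.040). It was 115, 103 and 113 CPM in cytosol ribosome-bound libraries, against 267, 262 and 254 in cytosol whole-cell libraries (-1.24 ± 0.040). The ranges of Smarca4 were far apart in both arms. Arid2, of the PBAF form, was 46.4, 46.9 and 44.3 CPM in ER ribosome-bound and 85.7, 84.2 and 90.3 CPM in ER whole-cell libraries (-0.92 ± 0.045), with -1.07 ± 0.045 in the cytosol pair. Of the subunits of the BAF form, Arid1a was at -0.71 in the ER pair and -0.50 in the cytosol pair, and Arid1b at -0.64 in the ER pair and -0.37 in the cytosol pair.

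The core and accessory subunits were mixed. Smarcc1 and Smarcd1 fell in the ER pair, at -0.34 ± 0.037 and -0.42 ± 0.036 (-0.11 and -0.19 under cytosolic scaling), and did not pass the test in the cytosol pair, at 0.06 ± 0.037 and -0.03 ± 0.035. Smarcb1, a core subunit and tumour suppressor, was 122, 122 and 121 CPM in ER ribosome-bound and 104, 102 and 107 CPM in ER whole-cell libraries, a rise of 0.22 ± 0.037. It was 147, 150 and 143 CPM in cytosol ribosome-bound and 103, 108 and 101 CPM in cytosol whole-cell libraries, a rise of 0.49 ± 0.037. Both rises were made without overlap. Brd9, of the noncanonical complex, rose by 0.33 ± 0.077 in the ER pair and 0.48 ± 0.074 in the cytosol pair, at mean levels of 16 to 22.4 CPM. Smarcd2 was at -0.21 ± 0.046 in the ER pair (0.02 under cytosolic scaling) and rose by 0.24 ± 0.044 in the cytosol pair. Brd7, Smarce1 and Smarcc2 rose in the cytosol pair by 0.29, 0.19 and 0.16 and did not pass the test in the ER pair.

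Among bromodomain readers, all 5 fell in the ER pair, with a median of -0.38, and 3 fell and 1 rose in the cytosol pair. Brd8, of the NuA4 acetyltransferase complex, was at -0.57 ± 0.042 in the ER pair and -0.63 ± 0.042 in the cytosol pair. Brd3 was 132, 131 and 132 CPM in ER ribosome-bound and 142, 146 and 149 CPM in ER whole-cell libraries (-0.15 ± 0.036). It was 172, 163 and 169 CPM in cytosol ribosome-bound and 145, 150 and 143 CPM in cytosol whole-cell libraries, a rise of 0.20 ± 0.035. Brd3 moved in opposite directions in the 2 pairs, though its ER value became 0.08 under cytosolic scaling, as did that of Brd2 (-0.15 ± 0.034 as scaled here). Of the other ARID proteins, which bind DNA, 3 of 7 fell in the ER pair and none passed the test in the cytosol pair. Arid3b was 63.3, 61.2 and 63.3 CPM in ER ribosome-bound and 84.5, 83.6 and 83.6 CPM in ER whole-cell libraries (-0.42 ± 0.041), with 0.03 ± 0.039 in the cytosol pair.

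**Figure D1:**
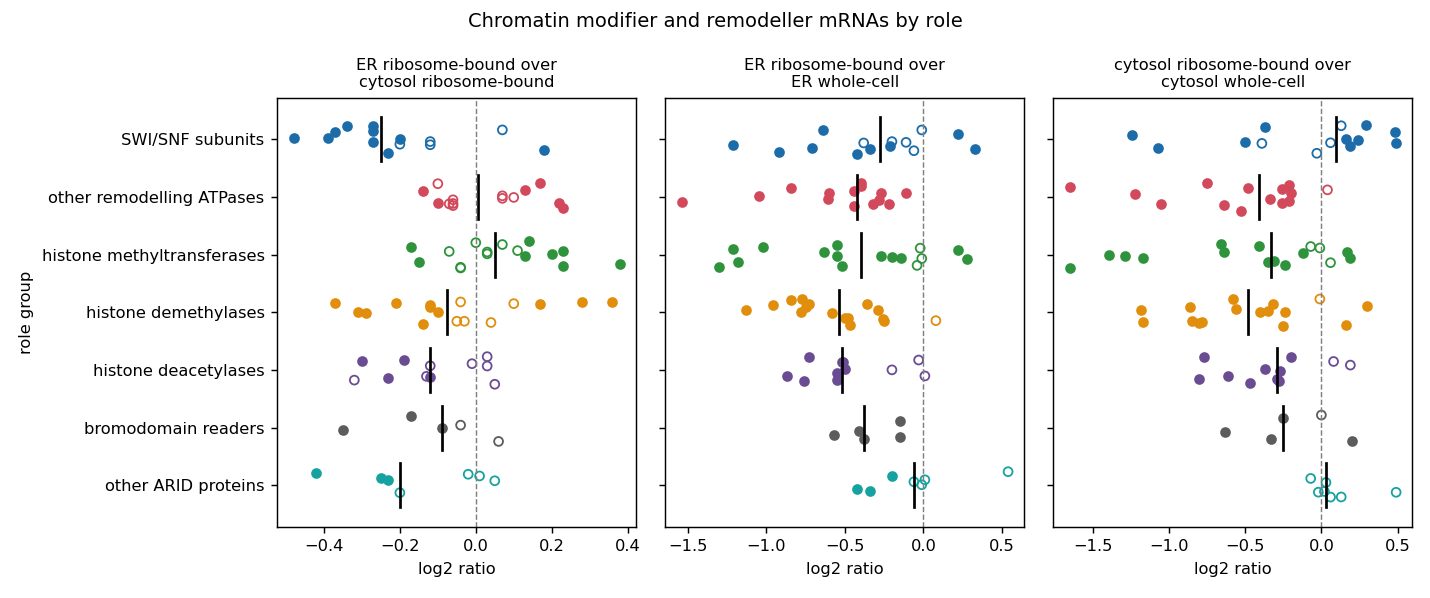
Log2 ratio of each tested chromatin gene by role group (rows) for 3 comparisons (panels), Brd3os left out. Filled points passed the edgeR threshold, open points did not, and black bars are group medians; most filled points in the middle and right panels lie left of 0, while SWI/SNF subunits straddle 0 at the right, and under cytosolic scaling the left panel moves right by 0.15, turning the medians of readers, deacetylases and demethylases positive.

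**Figure D2:**
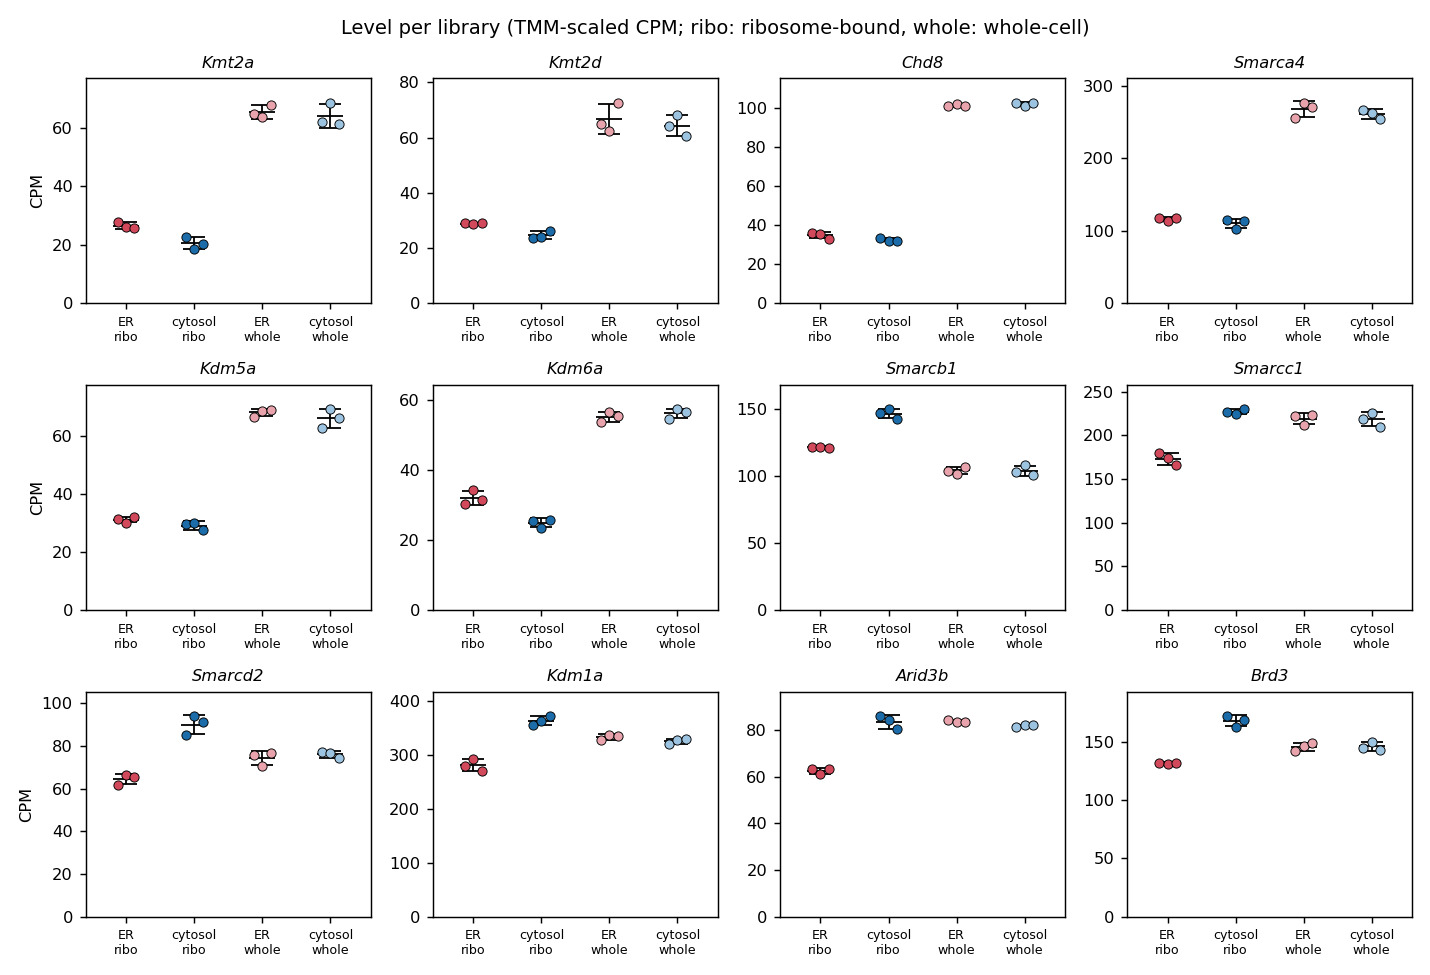
TMM-scaled CPM (vertical axes from 0) of 12 chromatin genes in each of the 12 libraries, by group from left to right: ER ribosome-bound, cytosol ribosome-bound, ER whole-cell, cytosol whole-cell. Points are libraries, and bars are the mean and SD of 3; Kmt2a, Kmt2d, Chd8, Smarca4, Kdm5a and Kdm6a sit far below the lysate in both ribosome-bound groups, and Smarcb1 sits above it.

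Both ratios to whole-cell RNA ranked the chromatin genes alike. 51 genes fell in both pairs, 4 rose in both (Smarcb1, Brd9, Kmt5c and Setd4) and 3 fell in the ER pair while rising in the cytosol pair (Smarcd2, Kdm1a and Brd3). Under cytosolic scaling none of these 3 passed the test in the ER pair, at 0.02, -0.02 and 0.08. Across the 84 genes the ratios of the 2 arms, which share no library, had a Spearman rho of 0.93, against 0.61 over 10277 other tested coding genes without a hydrophobic window. Genes are not independent replicates, so these are descriptions.

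**Figure D3:**
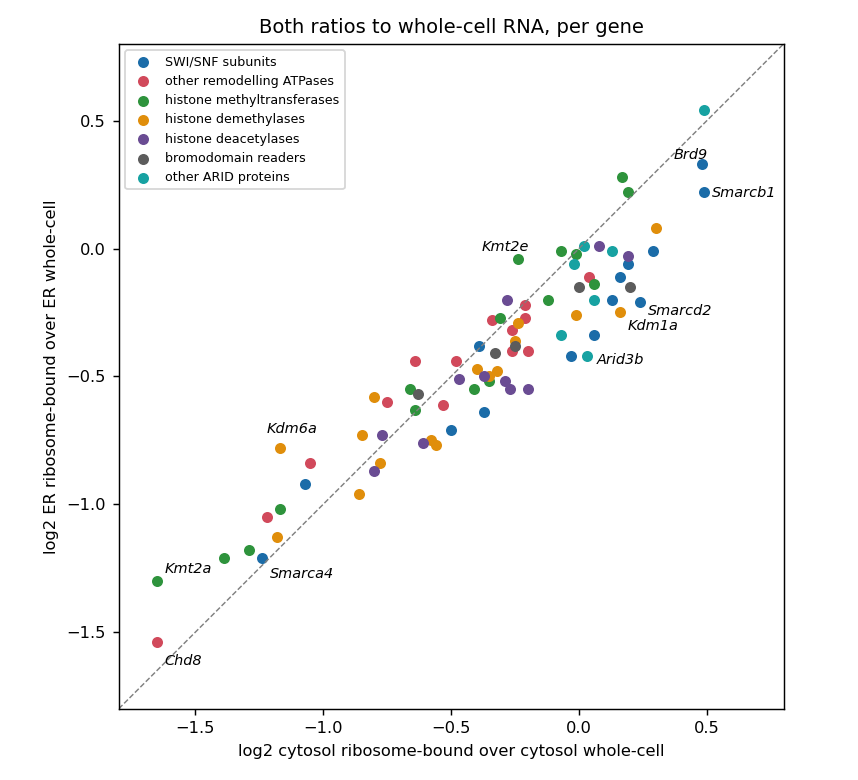
Log2 ratio of ribosome-bound over whole-cell RNA in the ER arm (vertical) against that in the cytosol arm (horizontal) for each tested chromatin gene, coloured by role, Brd3os left out. The dashed line marks equal ratios; Chd8 and Kmt2a lie at the lower left, Smarcb1 and Brd9 at the upper right, and Kdm6a and Kmt2a above the line while Smarcd2, Kdm1a and Arid3b lie below it.

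The direct comparison of ER with cytosol ribosomes asks which mRNAs the ER-labelled ribosomes hold more or less of. No chromatin gene reached a 2-fold difference, and ratios ran from -0.48 for Smarcd2 to 0.38 for Kmt2a, while 20 mRNAs of ER-translated proteins, such as Hspa5 and Sec61a1, ran from 1.66 to 2.67. With the scaling used here 31 of 84 chromatin genes fell and 14 rose, where 24.6% of all genes fell and 29.1% rose. Set beside 10357 tested coding genes without a hydrophobic window, of which 35.9% fell and 15.1% rose, the chromatin genes had 36.9% and 16.7%. The medians were -0.07 for the chromatin genes and -0.10 for those genes. Of the 80 housekeeping genes of the cytosol, 77.5% fell and 8.75% rose, with a median of -0.24. Of 368 tested Zfp-named zinc finger genes, 17.4% fell and 8.15% rose, with a median of -0.03. All 3 ER ribosome-bound libraries lay below the cytosol ribosome-bound libraries for 32 chromatin genes (27.3% of all) and above them for 15 (31%).

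These counts turn on the scaling. Under cytosolic scaling, which moved the median of all genes to 0.15, 33 chromatin genes rose and 11 fell. Of all 16221 tested genes, 6378 rose and 1487 fell under that scaling. TMM compares each library with 1 chosen library; in the 12 alternatives in which another library was chosen, 34 to 41 genes fell and 4 to 9 rose, and with DESeq2 34 fell and 7 rose. What holds under all 20 alternatives is a set of 14: Kmt2a, Kdm6a and Chd2 were higher on ER ribosomes, and Smarcd1, Smarcd2, Smarcb1, Smarcc1, Smarce1, Brd7, Kdm1a, Kdm1b, Hdac7, Arid3b and Brd3 were lower. Of the 11 lower genes, 6 are SWI/SNF subunits. The share of all tested genes that held in every alternative was not counted, so the set of 14 has no background beside it. Hdac7 and Kdm1b overlap another coding gene and Smarce1 has a pseudogene, so their counts are uncertain.

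Kmt2a was higher in every ER ribosome-bound library (27.9, 26 and 25.9 CPM) than in any cytosol ribosome-bound library (22.7, 18.6 and 20.2 CPM), at 0.38 ± 0.066 (edgeR adjusted p = 8e-06). Kdm6a was 30.3, 34.3 and 31.4 CPM in ER ribosome-bound libraries, against 25.5, 23.4 and 25.8 in cytosol ribosome-bound libraries (0.36 ± 0.057, edgeR adjusted p = 1e-06). Chd2, another CHD remodeller, was 77.7, 73.8 and 75.9 CPM in ER ribosome-bound libraries, against 64.1, 62.3 and 66.9 in cytosol ribosome-bound libraries (0.23 ± 0.042). All 3 were without overlap, 1.18-fold (Chd2) to 1.30-fold (Kmt2a) higher on ER than on cytosol ribosomes, and below the lysate in both pairs. Kmt2d, Kmt2c, Kmt2b and Chd9 were also higher as scaled here, by 0.23, 0.20, 0.14 and 0.17, but Kmt2d lost the call in 2, Kmt2c in 12, and Kmt2b and Chd9 in 14, of 20 alternatives.

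Smarcd2 was lowest on ER ribosomes, at 61.6, 66.3 and 65.3 CPM in ER ribosome-bound libraries, against 85, 93.9 and 91 in cytosol ribosome-bound libraries (-0.48 ± 0.045, edgeR adjusted p = 1e-11). Smarcc1, a scaffold of the stem cell BAF complex, was 180, 174 and 166 CPM in ER ribosome-bound libraries, against 227, 225 and 230 in cytosol ribosome-bound libraries (-0.39 ± 0.037). Arid3b, at 63.3, 61.2 and 63.3 CPM in ER ribosome-bound and 86, 84.4 and 80.3 CPM in cytosol ribosome-bound libraries, had -0.42 ± 0.040. In none of the 3 did the groups overlap. Kdm1a was at -0.37 ± 0.035, Smarcd1 at -0.37 ± 0.036, Brd3 at -0.35 ± 0.036 and Brd7 at -0.34 ± 0.042, with no overlap either. Smarcc1, Smarcd1 and Kdm1a each overlap another coding gene and Brd3 faces Brd3os, so these counts are uncertain. As scaled here, Smarca4 and Chd8, the ATPases furthest below the lysate, did not pass the test between both ribosome populations, at 0.07 ± 0.041 and 0.10 ± 0.048. Under cytosolic scaling Smarca4 was at 0.22 and Chd8 at 0.25.

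The medians of the role groups differed in this comparison, but their ranges overlapped, from -0.48 to 0.18 for SWI/SNF subunits and from -0.17 to 0.38 for methyltransferases, and no test was made between groups. SWI/SNF subunits had a median of -0.25, with 9 of 14 lower and 1, Arid2, higher; under cytosolic scaling the median was -0.10 with 6 lower and 2 higher. Histone methyltransferases had a median of 0.05, with 6 of 16 higher and 2 lower, -0.01 with mitochondrially encoded genes left out, and 0.20 under cytosolic scaling with 11 higher and 0 lower. The ATPases outside SWI/SNF stood at 0.00 (0.15 under cytosolic scaling), demethylases at -0.07 (0.08), deacetylases at -0.12 (0.02), readers at -0.09 (0.06) and other ARID proteins at -0.20 (-0.05). A scaling shifts all genes alike, so the order of the groups is the same in both while the sign of 3 is not. Leaving out 18 tested genes, namely those that overlap another coding gene, Kdm6b, Brd3 and Brd3os for their opposite-strand namesakes, and Smarca5 and Smarce1 for a pseudogene, 21 of 66 fell and 13 rose. Many of the 66, such as Kmt2a, Chd2, Chd8 and Arid3b, still overlap a gene not annotated as coding, so their counts are uncertain too.

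Coding length ran with all 3 ratios. The chromatin genes are long, with a median coding length of 3243 bases, against 1383 for the 10277 other coding genes without a window. Over the 84 genes, coding length and the log2 ratio had a Spearman rho of -0.61 in the ER pair, -0.66 in the cytosol pair and 0.47 between ER and cytosol ribosomes. Over the 10277 other genes the values were -0.38, -0.40 and 0.08. Ratios formed from libraries with the same replicate number gave -0.63 to -0.54, -0.66 to -0.61 and 0.39 to 0.49 for the chromatin genes. The number of exons followed length, with -0.56, -0.59 and 0.43, while the length of the 5′ untranslated region did not, with 0.07, 0.03 and 0.11. The whole-cell level had -0.37 with the ER ratio in both sets of genes. That level contains the ER whole-cell libraries, the denominator of the ratio, and the part of this sharing in the value was not tested. All points share the same 12 libraries, and no test was made of these relations.

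Other genes were also grouped by coding length. The 27 chromatin genes of 4.5 kb or more had medians of -0.71 in the ER pair and -0.64 in the cytosol pair, against -0.57 and -0.66 for 501 other genes. The 35 below 3 kb had -0.20 and 0.03, against -0.06 and 0.05 for 8919 others. Between ER and cytosol ribosomes, the long group had a median of 0.07, with 11 higher (40.7%) and 5 lower (18.5%); of the other long genes, with a median of 0.11, 37.5% were higher and 11% lower. The short group had -0.15, with 1 higher (2.86%) and 17 lower (48.6%); of the other short genes, with a median of -0.11, 13.3% were higher and 38.4% lower. In between, 22 chromatin genes had a median of -0.09 with 40.9% lower, against -0.01 and 24.4% for 857 others. In the ER pair 92.6% of the long and 57.1% of the short chromatin genes fell, against 74.3% and 36.3% of the others. In the cytosol pair the shares were 92.6% and 34.3%, against 77.2% and 23.1%. No test was made of these differences. Kmt2d, with 16764 coding bases, Kmt2c, with 14712, and Kmt2a, with 11898, are the longest members, and Smarcd2, with 1593, and Smarcb1, with 1155, are among the shorter ones. Genes of like length could differ: Chd8, with 7746 coding bases, was at -1.54 in the ER pair, and Setd2, with 7611, at -0.55.

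**Figure D4:**
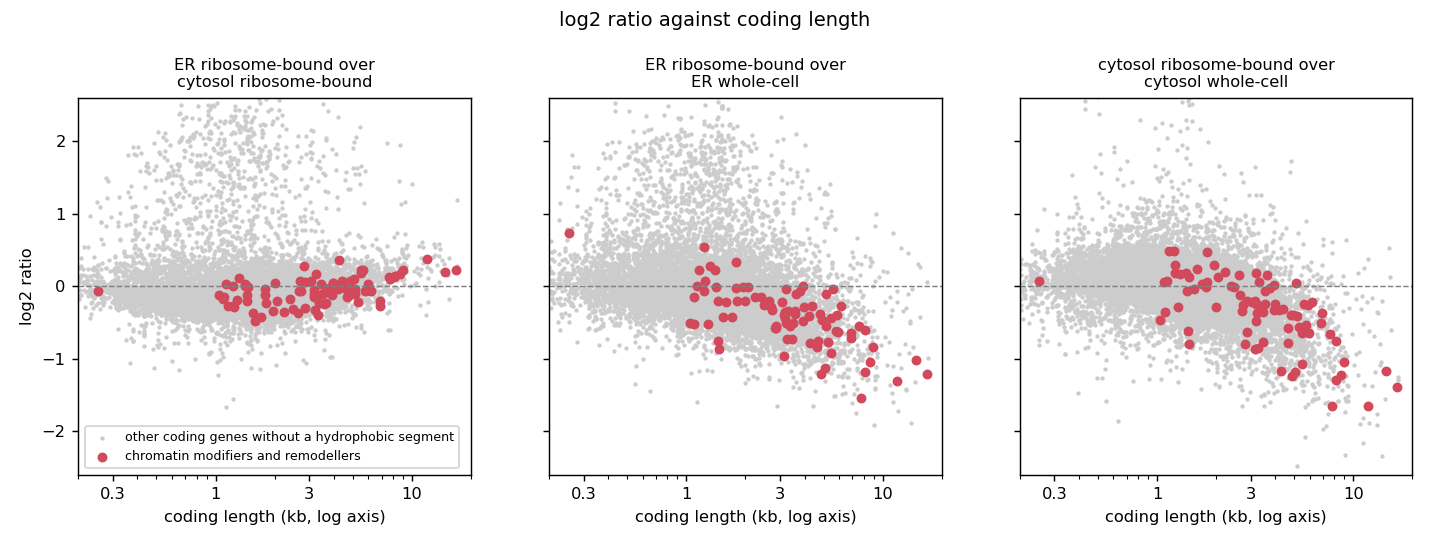
Log2 ratio against coding length (kilobases, log axis) in 3 comparisons; red points are the 84 tested chromatin genes and grey points are 10277 other tested coding genes without a hydrophobic window, of which 36, 59 and 73 lie beyond the axes of the panels from left to right. Longer chromatin genes sit lower in the middle and right panels and slightly higher in the left panel.

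Of 137 further genes in 8 lists (Polycomb, acetyltransferases, partners of SWI/SNF, NuRD and MLL, H3K9 and H4 methylation, ISWI and INO80 complexes, sirtuins), 136 were tested. In the ER pair 94 fell (69.1%) and 6 rose (4.41%), where 30.6% of all tested genes fell and 32.5% rose. In the cytosol pair 58 fell (42.6%) and 29 rose (21.3%), where 33% of all genes fell and 20.8% rose. These lists were counted with the TMM scaling only. Their median was -0.27 in the ER pair, against -0.41 for the 84 genes and 0.01 for all genes. In the cytosol pair it was -0.06, against -0.27 for the 84 genes and -0.05 for all genes. Between ER and cytosol ribosomes 73 fell and 19 rose, which is 53.7% and 14%. Of the 84 genes 36.9% fell and 16.7% rose there, and of all tested genes 24.6% and 29.1%. Men1 (menin), the partner of Kmt2a and Kmt2b, was among the 19 listed genes that rose, at 0.88 ± 0.049. It averaged 67.7 ± 3.2 CPM in ER ribosome-bound RNA and 36.7 ± 1.0 CPM in cytosol ribosome-bound RNA (SD, n = 3 each). The gene with the largest ratio in each other list was lower on ER ribosomes: Kat2a (an acetyltransferase) was at -0.58, Ruvbl2 (an INO80 ATPase) at -0.48, Ehmt2 (G9a, an H3K9 methylase) at -0.45 and Sin3b (a corepressor scaffold) at -0.41. Phf19 of Polycomb was at -0.37, the deacetylase Sirt1 at -0.33, and Dpf3 of SWI/SNF, with means of 0.747 CPM on ER and 1.21 CPM on cytosol ribosomes, at -0.69 ± 0.274. Of the 28 Polycomb genes, 16 fell and 1 rose between ER and cytosol ribosomes, against 9 and 1 of 14 SWI/SNF subunits; no test was made between the lists.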

How the data were processed

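Poly(A) RNA was sequenced in 12 libraries, 3 for each of 4 groups set by the labels. Each deposited file holds raw read counts of 1 library by Ensembl identifier, aligned to GRCm39 by STAR 2.7.9a and counted by HTSeq 0.11.2, per the submitters' processing notes. Libraries were made with a directional kit and 9 PCR cycles, per the labels' protocols. The annotation release, the strand setting and what was done with multimapped reads were not given in the sources used here, so counts of overlapping genes and of genes with pseudogenes are uncertain. Rows for reads outside genes held 8.75% to 12.54% of the reads and stayed out of library sizes and tests.

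Symbols, gene types and coding models came from GENCODE M21 (GRCm38), which matched 52135 of 55416 identifiers; no coordinates are given, since the builds differ. Of the symbols that fit the rule, 4 were not protein-coding and were left out. Genes were kept with filterByExpr by group (16221), scaled by TMM, and 1 model of 4 groups was fitted to the 12 libraries with edgeR 4.0.16 (limma 3.58.1) in R 4.3.3; 5 comparisons were tested two-sided by quasi-likelihood F, with p-values adjusted over all genes by Benjamini-Hochberg and a threshold of 0.05. Dividing the size of a log2 ratio by the root of its F statistic gave its SE. The biological coefficient of variation was 3.6%. Replicates differed by more than counting noise (chi-square per gene 2.08 to 8.83). The procedure was run on simulated counts in which only 200 genes were changed, between the ribosome-bound groups. Far more genes differed in the real data, so that run does not bear on the scaling. Precision covers counting error and the spread between libraries, of which PCR is a part that was not measured on its own.

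The members and lists were chosen with earlier results of these data known. The rule for genes named with values took those called over 2-fold, the highest, lowest and most counted of each role group, and the largest called ratio of each other list; further genes were chosen after their values were seen. Alternatives covered scaling, filters, DESeq2 1.42.0, the groups in the fit, replicate blocks and leaving out each library. The values of 1 member are not reported here.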

Additional observations from a re-analysis of the deposited data

Results flagged for a closer look

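The difference between the ER and the cytosol ratio of ribosome-bound to whole-cell RNA was tested as an interaction term (edgeR quasi-likelihood test, Benjamini-Hochberg adjusted). It was called for 32 of 84 chromatin genes, 28 lower and 4 higher, where 18.6% of all genes were lower and 24.8% higher. Among 39 genes picked by the rule for named genes, 16 were called. The ER ratio exceeded the cytosol ratio for Kdm6a (0.39), Kmt2a (0.34), Chd7 (0.21) and Chd2 (0.20). It was below the cytosol ratio for the SWI/SNF subunits Smarcd2 (-0.45), Smarcc1 (-0.39) and Smarcb1 (-0.27), for Arid3b (-0.45) and Arid5b (-0.27), for the demethylase Kdm1a (-0.41), and for the readers Brd3 (-0.35) and Brd2 (-0.15). Smaller negative differences were found for Smarca5 (-0.20), Kmt5a (-0.20), Chd1 (-0.15) and Hdac1 (-0.15). Since whole-cell levels were close between targetings, these differences lie near the direct ER to cytosol ratios and share their ribosome-bound libraries with them. Under cytosolic scaling, which moved the median difference of all genes to 0.166, 26 chromatin genes were higher and 6 lower. Of all 16221 tested genes, 5273 were higher and 807 lower there. Kdm6a and Kmt2a were higher, and Arid3b, Brd3, Kdm1a, Smarcc1, Smarcd1 and Smarcd2 lower, in all 20 alternatives. How many of all tested genes held in every alternative was not counted.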

How the results depend on the processing

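Of the summary values, 229 stayed close to the main value and 77 moved over 21 alternatives. A count moved if it changed by more than a set fold. A median moved if its change reached the SD of that median among replicates (0.009 to 0.026), so a move need not be a change of sign. Of the single-gene values 1845 were unchanged in direction and call, 17 gained and 74 lost the call, and 48 reversed. Between ER and cytosol ribosomes, genes higher numbered 33 with cytosolic scaling, 8 without mitochondrially encoded genes, 7 with no filter, 9 with at least 1 CPM in 6 libraries and 7 with DESeq2, and 4 to 14 with 1 library left out; 11 were lower with cytosolic scaling, and 29 to 41 with 1 library left out. The median there was -0.11 with RLE size factors and with DESeq2, 0.08 with cytosolic scaling, -0.12 without mitochondrial genes and under the 1 CPM filter, -0.13 with no filter, and -0.15 to -0.07 with 1 library left out. In the ER pair cytosolic scaling gave 15 higher and a median of -0.18; the median was -0.40 under the 1 CPM filter, -0.42 with only the 2 groups compared and -0.42 to -0.40 with 1 library left out. In the cytosol pair it was -0.23 with RLE and DESeq2, -0.21 with cytosolic scaling, -0.22 without mitochondrial genes, with no filter, under the 1 CPM filter and with 2 groups, and -0.29 to -0.21 with 1 library left out. Between the whole-cell groups it was 0.00 with cytosolic scaling and -0.00 to 0.02 with 1 library left out. For the difference of the pairs, cytosolic scaling gave 26 higher, 6 lower and a median of 0.09; no filter gave 2 higher and -0.13, RLE -0.11, and DESeq2, the 1 CPM filter and leaving out mitochondrial genes -0.12, while leaving out 1 library gave 2 to 6 higher and medians of -0.15 to -0.08. The cause of these moves was not tested.

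Reversals between ER and cytosol ribosomes under cytosolic scaling were Chd1 (0.05), Hdac1 (0.03), Smarca5 (0.01) and Brd3os (0.08; -0.28 to 0.10 with 1 library left out). Arid4b was -0.01, -0.02 and -0.00, and Hdac10 -0.01, -0.02 and -0.01, without mitochondrial genes, with no filter and under the 1 CPM filter; with 1 library left out Arid4b was -0.03 to 0.08, Hdac10 -0.07 to 0.10 and Brd8 -0.04 to 0.06 (-0.01 with no filter). In the ER pair cytosolic scaling turned Brd2 (0.08), Brd3 (0.08), Chd1 (0.12), Kmt5a (0.09) and Smarcd2 (0.02), and Hdac8 was -0.00 with DESeq2 and -0.07 to 0.13 with 1 library left out. In the cytosol pair, leaving out 1 library gave -0.07 to 0.05 for Arid5b and -0.09 to 0.50 for Brd3os. Same-numbered libraries did not deviate together (correlations of -0.08 to 0.06), so the numbers were not taken as pairs; with the replicate number as a block, 14 genes were higher and 31 lower between ER and cytosol ribosomes, 4 and 63 in the ER pair, 11 and 53 in the cytosol pair, and 0 and 0 between whole-cell groups. Low counts limit Arid3c, Brd3os, Smarca2 and Hdac9, whose SE reached 0.379.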
